A study of Mus musculus with 24 samples.

Results

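The cytosolic ribosomal proteins were taken as every protein-coding row of the count table whose symbol begins with Rpl or Rps and a digit, together with Rplp0, Rplp1, Rplp2 and Rpsa. Kinases named Rps6k and all pseudogenes were left out. The rule found 86 genes among 49585 gene rows, of which 52 encode large-subunit proteins and 33 encode small-subunit proteins. The remaining gene, Rps19bp1, matched by name alone and encodes a partner of Rps19 that is no part of the ribosome. Another 6 protein-coding rows carry a pseudogene suffix in their symbol and were left out, and Rpl9-ps6 at 26.6 ± 10.3 CPM and Rpl10-ps3 at 17.2 ± 6.18 CPM were the most abundant of them (mean ± SD over 24 cells, as throughout). CPM is the usual unit in which the count of a gene is scaled to the total count of its cell.

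The ribosome joins a small subunit, which reads the messenger RNA, to a large subunit, which forms the peptide bonds, and most of their proteins are needed in equal numbers. Their mRNAs usually begin with a cytosine and a run of pyrimidines, the terminal oligopyrimidine (TOP) tract, through which their translation follows growth signals. Red cell precursors depend strongly on ribosome supply, and in humans the loss of a single copy of one of many ribosomal protein genes causes Diamond-Blackfan anaemia, a failure of early red cell production.

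The data come from single cells sorted from the fetal liver of C57/Bl6J mice at embryonic day 14.5 as BFU-E, or burst-forming units-erythroid, which are among the earliest progenitors bound to form red cells. Before the sort, mature red cells were lysed and beads removed cells with CD41, CD16/32, Sca-1, Ter119, CD11b, Ly-6G, CD45R or CD3e on their surface, and the sort used stains for CD24, CD71 and CD117. The 24 cells form 1 group, with no genetic change and no treatment named in the labels. Their names end in a letter from A to H and a number from 1 to 3. These endings were read as wells in 3 columns and 8 rows of 1 plate, with 8 cells in each column and 3 in each row. Plate rows, plate columns and the single plate are thus inferred from the names. Which embryo a cell came from is not named, so the cells are not replicate animals. The whole group was treated as 1 sample, and SDs describe the spread between its cells, without p-values.

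Smart-seq2, a plate method whose reads cover whole transcripts and carry no molecular identifiers, gave 876983 to 2155010 counts per cell. Cell 4 had the lowest level of all 24 cells in 42 of 83 members. Whether this cell was lowest as often among other genes was not tested. Mitochondrially encoded genes and ribosomal RNA rows were also lowest there, at 2.18% and 2.30% of counts, against medians of 3.59% and 5.32% over the 24 cells. All 10 erythroid progenitor markers were detected in at least 12 cells, and their summed level had a median of 2711 CPM. That sum was under 1000 CPM in cells 1, 9, 19 and 24, where Klf1, an erythroid transcription factor, was at 2.48, 2.85, 0.81 and 8.12 CPM. Gata1 was at 2.48, 2.85, 0 and 0 CPM in the same cells. Klf1 was also low in cell 23, at 3.42 CPM, but the erythroid sum there was 2728 CPM and Gata1 was at 886 CPM. Cell 19 had the lowest sum, 605 CPM, no counts of Gata1, and the highest summed lymphoid (1143 CPM) and endothelial (457 CPM) markers, so its markers go in part against its label. Its lymphoid sum was Flt3 (975 CPM) and Il7r (169 CPM), and its endothelial sum was Pecam1 alone. Of the erythroid list, Epor, Zfpm1 and Tal1 were also at 0 in cell 19. Kit (190 CPM), Myb (181) and Nfe2 (68.9) were under their medians of 338, 408 and 161 CPM. Tfrc, at 162 CPM, was above its median of 43.8 CPM. The lymphoid and endothelial lists hold 5 markers each, and Dntt, Cd3e and Cd79a of the former and Cdh5, Kdr and Lyve1 of the latter were at 0 in all cells. Of the other cell types' markers, the early myeloid list was highest in cell 1 at 9283 CPM, the megakaryocyte list in cell 12 at 1755 CPM, the mast cell and basophil list in cell 3 at 1487 CPM, the hepatocyte list in cell 10 at 1130 CPM, the macrophage list in cell 1 at 462 CPM and the stromal list in cell 12 at 98.7 CPM. Elane and Ms4a3 of the early myeloid list and Pf4 and Ppbp of the megakaryocyte list were at 0 in all cells. So were C1qa, C1qb, C1qc and Adgre1 of the 6 macrophage markers and Col3a1 and Dcn of the 4 stromal markers. Serpina1a of the hepatocyte list and Ms4a2 of the mast cell and basophil list were at 0 in all cells too. The early myeloid sum was also high in cell 23, at 2806 CPM against a median of 77.9 CPM. With low Klf1 and Gata1, the markers of cells 1, 9 and 24 thus also go in part against their label.

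The start regions of the genes were searched for the TOP tract. RefSeq windows on GRCm38.p6 were matched by symbol for 66 of the 86 members. A cytosine at the annotated start followed by at least 4 more C or T was present in 14 of them, or 21.2%, against 3.01% of all 27025 genes with a window. A run of 8 or more C or T anywhere from 30 bases before to 50 bases after the start was present in 50 members, or 75.8%, against 32.3% of all genes. Of the 14, 6 with long runs at the start are shown as 30 bases before and 20 bases from the start, with the run in capitals. Their windows are Rpl15 at chr14:18270967-18271016 on the minus strand, Rpl35 at chr2:39005112-39005161 on the minus strand, Rps10 at chr17:27635225-27635274 on the minus strand, Rps18 at chr17:33955646-33955695 on the minus strand, Rps6 at chr4:86857348-86857397 on the minus strand and Rpl28 at chr7:4792935-4792984 on the plus strand.
Rpl15: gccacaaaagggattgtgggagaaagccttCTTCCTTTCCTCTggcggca
Rpl35: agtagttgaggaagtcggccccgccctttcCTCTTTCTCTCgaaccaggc
Rps10: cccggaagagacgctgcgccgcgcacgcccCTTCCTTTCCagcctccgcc
Rps18: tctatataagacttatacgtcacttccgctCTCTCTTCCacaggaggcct
Rps6: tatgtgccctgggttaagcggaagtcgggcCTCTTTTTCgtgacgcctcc
Rpl28: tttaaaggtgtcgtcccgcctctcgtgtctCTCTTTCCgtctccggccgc

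The runs measured 13 bases in Rpl15, 11 in Rpl35, 10 in Rps10, 9 each in Rps18 and Rps6, and 8 in Rpl28. The letters CCGGAAG, or CTTCCGG on the other strand, a match to the binding motif of ETS-family factors, were found from 100 bases before to 50 bases after the start in 20 members, or 30.3%, against 7.52% of all genes. TATAAA, searched on the coding strand in the 60 bases before the start, was found in 1 member, or 1.52%, against 3.44% of all genes. A match describes the letters only. The 14 members with the tract at the annotated start had a median level of 824 CPM per kb, a median coefficient of variation (CV, the SD as a percentage of the mean) of 22.4% and a median rho of 0.34 with the other members. The 49 matched and detected members without it had 891 CPM per kb, 19.1% and 0.33, and the difference was not tested.

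Detection, taken as at least 5 counts in a cell, was close to complete. In all 24 cells, 82 of the 86 members were detected, against 2.48% of all gene rows and 5.17% of protein-coding rows. Detection in at least 12 cells was met by 83 members, against 12% of all rows and 26.1% of protein-coding rows. Rps19bp1, the gene that is no ribosomal protein, was detected in 22 cells. Rpl3l, which replaces Rpl3 in skeletal and heart muscle, Rpl10l, which stands in for Rpl10 in the male germ line, and Rpl39l, the testis counterpart of Rpl39, had no count in any cell. Their 0 counts leave room for up to 3 counts in a cell, or 1.39 CPM in the deepest cell and 3.42 CPM in the shallowest, by counting error only. The parent genes of these paralogs were abundant, with Rpl3 at 1226 ± 261 CPM, Rpl10 at 1145 ± 229 CPM and Rpl39 at 383 ± 83.5 CPM.

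Together the members took 7.46% ± 0.62 of all counts. The share was lowest in cell 4 at 5.41%, had a median of 7.46% and was highest in cell 2 at 8.26%. Large-subunit genes took 4.16% ± 0.35 and small-subunit genes 3.30% ± 0.28 of counts. The ratio of large- to small-subunit counts was 1.26 ± 0.05, from 1.15 in cell 19 to 1.36 in cell 18. Thus the ratio varied less between cells than the shares did, and cell 4, with the lowest share of both subunits, did not have an extreme ratio. Plate columns 1, 2 and 3 averaged 7.26% ± 0.79, 7.53% ± 0.51 and 7.60% ± 0.55 (SD over 8 cells each), and these ranges overlap. The 4 cells with weak erythroid markers had ordinary shares, 7.46% in cell 1, 7.94% in cell 9 and 7.66% in cell 19, apart from cell 24 at 6.58%, the second lowest of the 24.

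**Figure D1:**
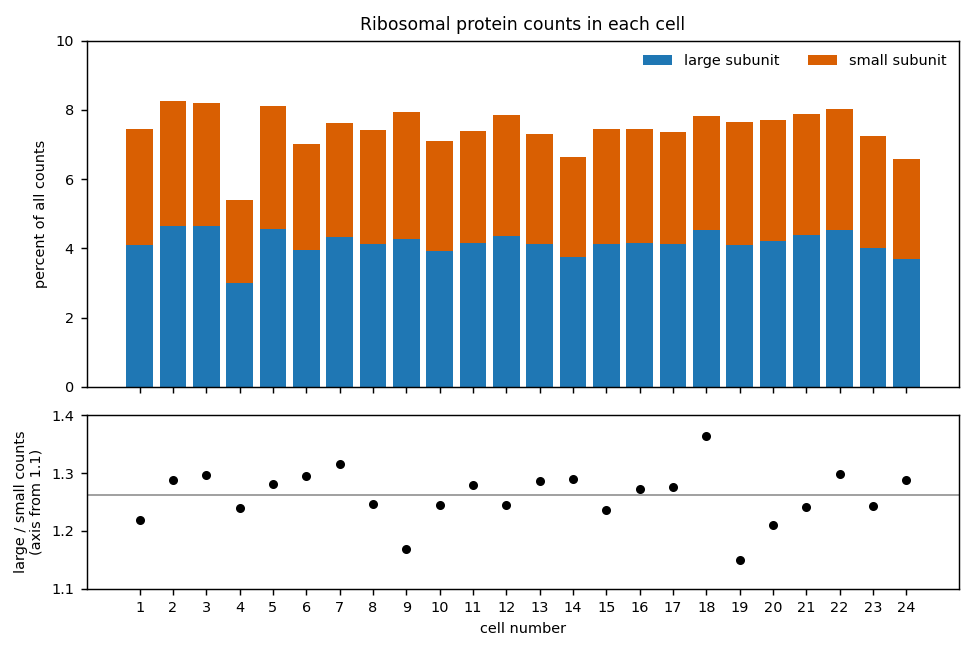
Percent of all counts taken by large-subunit (blue) and small-subunit (orange) genes in each of 24 cells, with the ratio of the subunits' counts below (points, with a line at the mean of 1.26, axis cut at 1.1). Cell 4 has the shortest bar, at 5.41%, and cell 19 the lowest ratio, at 1.15.

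Across cells, summed large-subunit and summed small-subunit CPM ran together, with a Spearman rho of 0.79 and a Pearson r of 0.90 (n = 24 cells that share plate, chemistry and scaling). Without cells 2 and 4, the cells farthest from the median, r was 0.80. Within plate columns 1, 2 and 3 rho was 0.55, 0.93 and 0.60, over 8 cells each. The share of counts held by the members had little relation to total counts (rho −0.04), to the number of genes detected (rho −0.15) or to the level of Klf1 (rho −0.08), Gata1 (rho −0.22) or Myc (rho 0.01) over the same cells. It ran weakly with the share of mitochondrially encoded genes (rho 0.30) and of ribosomal RNA rows (rho 0.33), both lowest in cell 4, and the part of RNA quality in this was not tested. Within plate columns 1, 2 and 3, rho was 0.43, −0.55 and 0.83 for the former and 0.45, 0.67 and 0.31 for the latter. Without cells 4 and 24, Pearson r fell from 0.46 to 0.23 for the former and from 0.63 to 0.15 for the latter. For total counts the columns disagreed, with rho of −0.67, 0.69 and −0.36.

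Levels of different genes are given as mean CPM per kb of the median protein-coding transcript, since reads fall along the length of the mRNA. On that scale the 83 detected members had quartiles of 605, 967 and 1528 CPM per kb. The 10 members with most counts held 32.0% of the members' counts. Among the highest members were Rplp0, Rpl4, Rplp1, Rpl32, Rps3, Rps27 and Rps14, in that order, from Rplp0 at 3132 ± 358 to Rps14 at 2465 ± 281 CPM per kb. Each gap between neighbours in this order was smaller than the SD of the higher gene. The place of Rps3 depends on the length used, since it would stand at 1308 CPM per kb, rank 29 of 83, with its representative mRNA (the shortest with the longest coding sequence, 1908 against 952 bases).

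**Figure D2:**
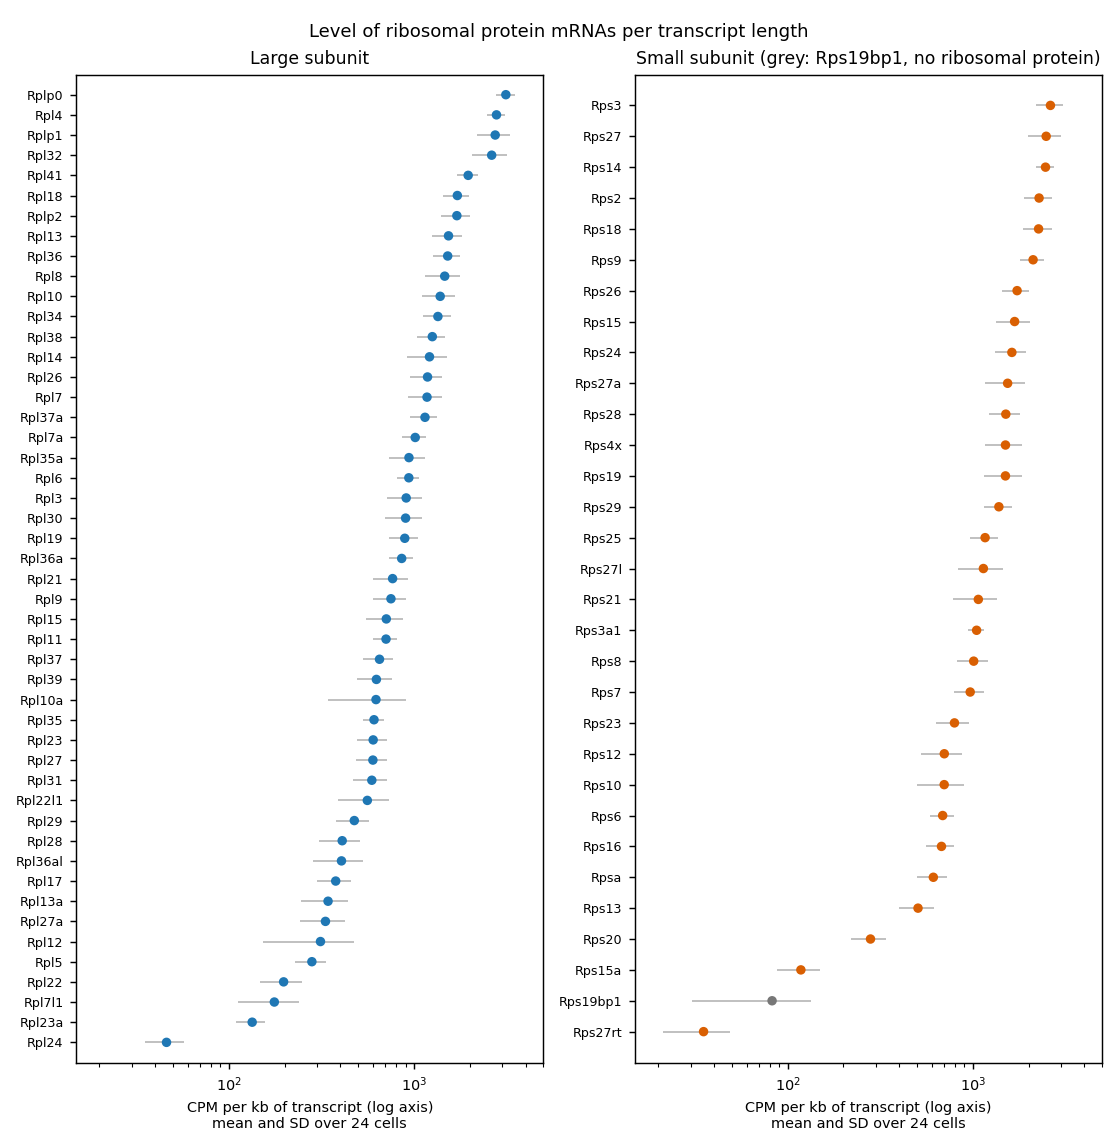
Mean level of each of 79 members in CPM per kb of transcript (log axis; points, with SD over 24 cells as lines), large subunit left and small subunit right. The lower and upper quartiles over the 83 detected members are 605 and 1528 CPM per kb, and Rpl24 (46.1) and Rps27rt (35.1) lie lowest.

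Grouped by place in the ribosome, the stalk stood highest. Rplp0, Rplp1 and Rplp2 form the P stalk, which recruits the elongation factors. Rplp0 (chr5:115559467-115563727, plus strand) ranged over 3270, 4246 and 5111 CPM as lowest, median and highest cell, and cell 24 was the lowest. Rplp1 reached 2744 ± 549 and Rplp2 1703 ± 297 CPM per kb, and the mean rho between the pairs of stalk genes was 0.39. Rplp1 and Rplp2, which form dimers bound to Rplp0, thus had levels within the upper quartile too.

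Proteins around the mRNA path of the small subunit (Rps2, Rps3, Rps14, Rps23, Rps26 and Rps28) ran from 795 CPM per kb for Rps23 to 2621 for Rps3, with a median of 2004, and Rps3 would be at 1308 with its representative mRNA. Rps3, at the mRNA entry, measured 1808 CPM in the lowest cell, 2427 in the median and 3305 in the highest. Rps14 (11.4%) had the lowest CV of these genes. The mean rho of their pairs was 0.20.

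Of 9 proteins listed at the peptide exit tunnel, Rpl4 was highest at 2788 ± 321 CPM per kb and Rpl23a lowest at 134 ± 23.8, with a median of 608. Rpl4, whose long loop lines the tunnel, had 3347, 4288 and 5435 CPM in the lowest, median and highest cell. Other rows overlap 62.3% of the exon length of Rpl23a, and 82.6% of its windows of 50 bases occur in another gene. For Rpl35, which stood at the median of 608 CPM per kb, these values were 66.2% and 40.1%, and the levels of both genes are uncertain. Rpl5 and Rpl11, which carry the 5S ribosomal RNA into the large subunit and bind Mdm2 when assembly fails, stood at 281 ± 53.7 and 706 ± 106 CPM per kb. They did not move together, with a rho of −0.32 over 24 cells. Rpl5 was lowest in cell 19, at 242 CPM against 589 ± 85.9 CPM in the other 23 cells. Rpl11 was at 760 CPM in cell 19, against 588 ± 88.4 CPM over all 24 cells. The part of cell 19 in this rho was not tested. Other rows overlap 26.7% of the exon length of Rpl5. Of the windows of 50 bases, 48.5% in Rpl5 and 62.2% in Rpl11 occur in another gene, which limits the reading of both.

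The 19 genes described here whose loss is linked to Diamond-Blackfan anaemia in humans were each detected in all 24 cells. So were 82 of all 83 members, and detection did not set the 19 apart. Their levels ran from 118 CPM per kb for Rps15a, whose level depends on the length used, to 2485 for Rps27, with a median of 939, against 967 for all 83 members. Rps19, the gene most often affected in patients, had 602, 1111 and 1933 CPM in the lowest, median and highest cell. The highest of these was cell 19, at 1933 CPM against 1126 ± 217 CPM in the other 23. The pairs of this list had a mean rho of 0.16, near that of all members (0.15).

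The lowest members were Rps27rt at 35.1 ± 13.8, Rpl24 at 46.1 ± 10.9, Rps19bp1 at 82.3 ± 51.8 and Rps15a at 118 ± 30.7 CPM per kb. The place of Rps15a rests on the length used. Its median transcript is 5130 bases but its representative mRNA is 640, which would put it at 944 CPM per kb. In 7 members (Rps3, Rps24, Rps19, Rps13, Rpl22 and Rps15a among them) these lengths differed by more than 1.5 times, and the orders from both lengths had a rho of 0.92. Rpl24, in contrast, is 677 bases long. It had 23.7, 28.8 and 48.8 CPM in the lowest, median and highest cell, so all cells were low. Another row, Gm28037, which had no counts, overlaps 47.0% of its exons, and 81.7% of the windows of 50 bases in its mRNA also occur in another gene. The part of lost reads in its level was not tested.

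Near-identical copies limit the reading of most members. Of the 83 detected members, 81 share at least 1 window of 50 bases with another annotated gene, 47 share over 50% of their windows, and the median is 55.4%. Rps27 shares 98.6%, Rpl10 92.1% and Rps27rt 91.1%. The level per kb had a weak relation to the shared percentage across these genes (rho −0.11), which are not independent replicates. Other rows overlap exons of 37 members, and in 9 of these they cover more than 20% of the exon length. Without strand information, reads of overlapping genes cannot be told apart.

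Rows annotated as pseudogenes and named after ribosomal proteins were also counted. Whether their reads came from members or from the pseudogenes themselves was not tested. Of 281 such rows, 206 had a count, 43 passed detection in 12 cells or more and 20 in all 24. Together they held 0.08% ± 0.01 of all counts, or 1.12% of the members' counts. The 5 with most counts were Rps4l (113 ± 72.1 CPM), Rpl14-ps1 (72.6 ± 17.97), Rpl37rt (63.4 ± 15.99), Rps16-ps2 (55.9 ± 12.9) and Rpl3-ps1 (38.3 ± 9.84). Adding all of them to the members would set the share at 7.55% in place of 7.46%. Reads mapped to several places and dropped in counting are not in the table, and how the authors' counting treated them is not stated in the labels.

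The members were among the least variable genes of these cells. Their median CV was 20%, against 85.5% over the 5962 genes detected in at least 12 cells. Since spread falls with level, the comparison was also made among genes of at least 1000 mean CPM, where 28 members had a median CV of 18.1% and 55 other genes 28.0%. Of the 100 genes of lowest CV, 62 were members, and so were 9 of the lowest 10. Rps3a1 (chr3:86137940-86142702, minus strand), a protein of the small subunit, had the lowest CV of all genes at 10.2%, with 854, 1025 and 1223 CPM in the lowest, median and highest cell. Rps14 and Rplp0 followed at 11.4% each, and Rpl4 was at 11.5%. The other gene among the lowest 10 was Ppia, a prolyl isomerase often used as a reference gene, at 11.5%.

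**Figure D3:**
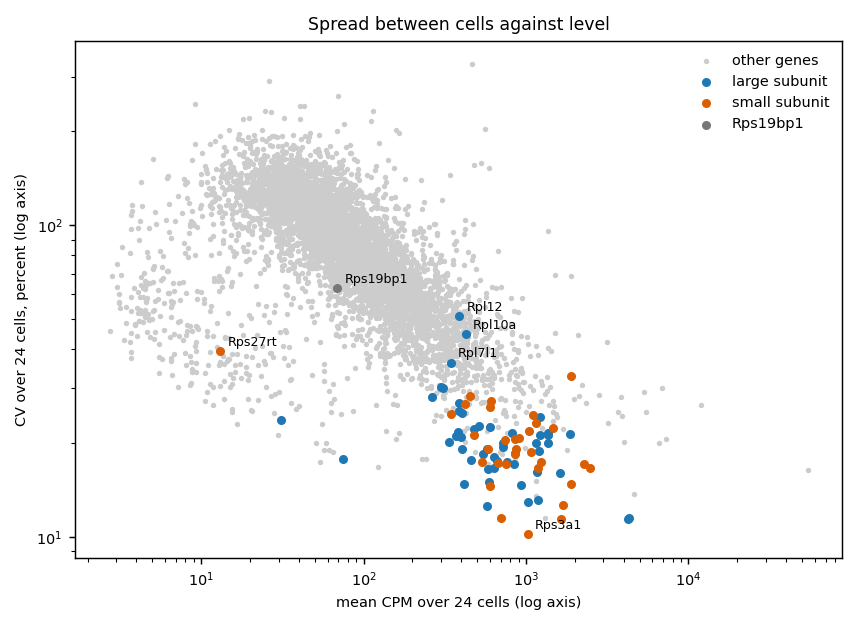
CV over 24 cells against mean CPM (both log axes) for 5962 genes detected in at least 12 cells, with large-subunit members in blue, small-subunit members in orange, Rps19bp1 dark grey and other genes light grey. Members form the lower edge of the cloud, with Rps3a1 lowest at 10.2% and Rpl12 and Rpl10a above most members of like level, with their highest cells in plate rows D and H.

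A few members varied much more. After Rps19bp1 at 62.9%, high CVs were those of Rpl12 (51.2%), Rpl10a (44.7%), Rps27rt (39.4%), Rpl7l1 (36.3%), Rpl22l1 (30.2%) and Rpl36al (30.2%). Rpl12 (chr2:32961559-32965345, plus strand), a protein at the base of the stalk, had 170, 329 and 903 CPM in the lowest, median and highest cell. Its 3 highest cells were cells 10, 11 and 12, at 841, 903 and 844 CPM, which form plate row D, against 170 to 541 CPM in the other 21 cells. Without that row its CV was 25.5%. Rpl10a (chr17:28328471-28331033, plus strand), which sits at the opposite stalk beside the exit site for transfer RNA, had 117, 347 and 1019 CPM, and its lowest cell was cell 4. Its 3 highest cells were cells 22, 23 and 24, at 748, 1019 and 694 CPM, which form plate row H, against 117 to 625 CPM in the other 21 cells. Without that row its CV was 29.3%. Differences between rows made up 75.8% of the log2 variance of Rpl12 and 54.9% of that of Rpl10a, and the plate row and the cells in it cannot be told apart. One row held the 3 highest cells in 3 of 83 members (3.61%), against 34 of 5962 genes (0.57%). The median share of log2 variance between the 8 rows was 28.3% for the members, against 29.2% for all genes. Windows of 50 bases that occur in another gene made up 49.0% of the windows of the Rpl12 mRNA and 77.5% of those of the Rpl10a mRNA. Rps27rt, Rpl7l1, Rpl22l1 and Rpl36al are paralogs of another member.

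Members co-varied weakly. Over 3403 pairs of 83 members the mean Spearman rho was 0.15, and 74.8% of pairs were above 0, against a mean of 0.01 over all pairs of the 5962 genes. Those genes were not matched to the members for level. The values come from 24 cells that share plate, chemistry and scaling. Pairs within the large subunit averaged 0.14, pairs within the small subunit 0.16 and mixed pairs 0.15, so co-variation did not follow the subunits. It was larger among abundant genes, with 0.21 for the 28 members of highest mean CPM, 0.15 for the next 28 and 0.12 for the 27 lowest. Without cell 4 the mean was 0.097, and it was 0.19, 0.15 and 0.13 within plate columns 1, 2 and 3. When each cell was scaled to the sum of its own member counts in place of all counts, the mean was −0.0024, but that scaling fixes the members' sum in every cell and by itself lowers their co-variation. With the mean of each plate row subtracted, an alternative chosen after seeing the data, it was 0.16.

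The extreme pairs were Rps20 with Rpl27a (rho 0.79) and Rps27l with Rpl15 (rho −0.70). Closest to the mean of the other members were Rps2 (rho 0.73), Rplp1 (0.71), Rps15 (0.70), Rpl17 (0.69) and Rpl13 (0.68). Among the farthest from it were Rpl36al (−0.23), Rps6 (−0.11), Rps9 (−0.06) and Rpl15 (−0.03).

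**Figure D4:**
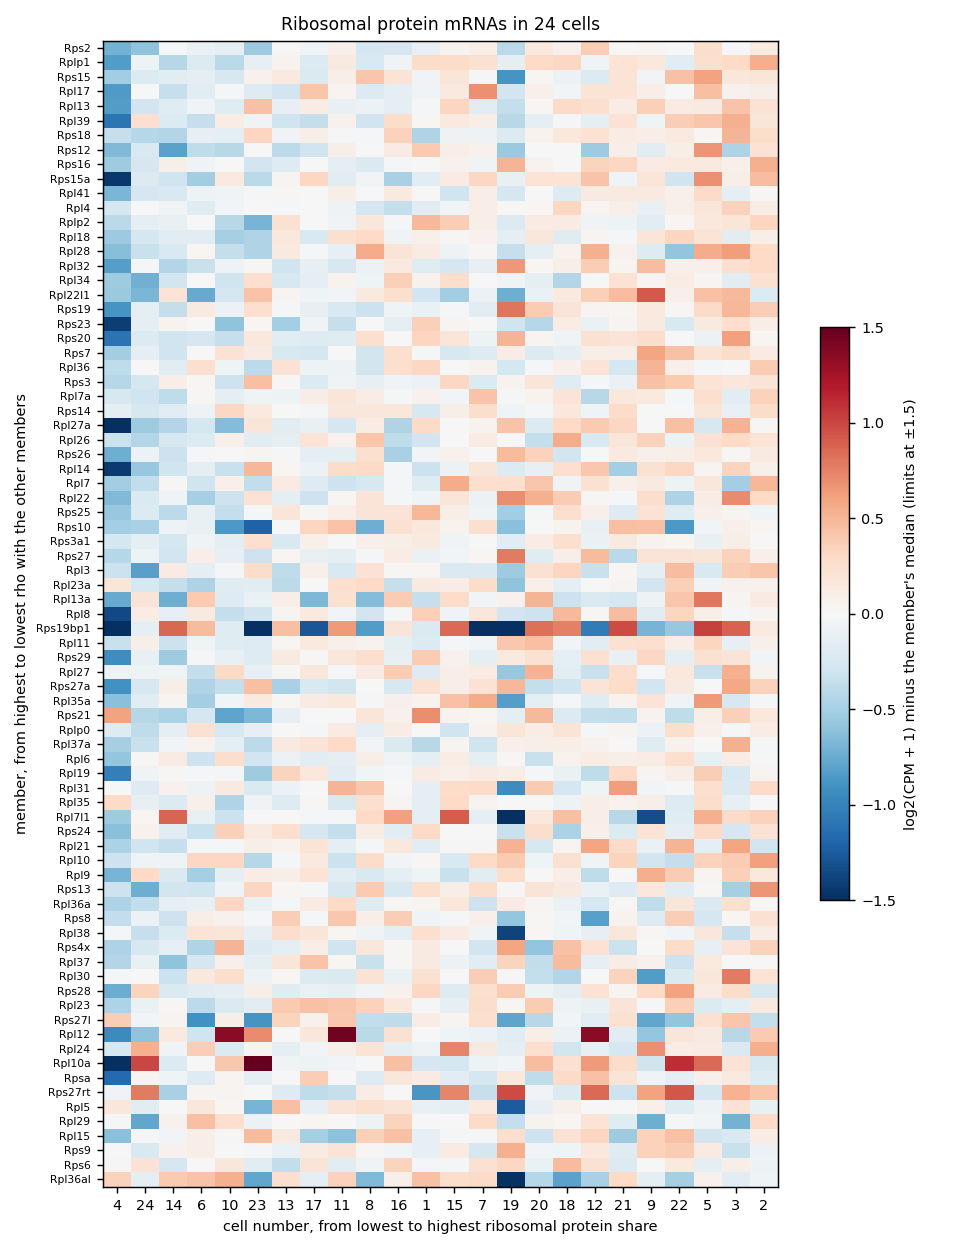
Deviation of each of 79 members (rows, ordered from highest to lowest rho with the other members) from its median in 24 cells (columns, ordered from lowest to highest ribosomal protein share), as log2(CPM + 1) with colours limited at ±1.5. The column of cell 4 at the left is blue for most members, and that of cell 19 holds both strong blue and strong red rows.

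The profile of the members was nevertheless alike in all cells. Between pairs of cells, the log2(CPM + 1) values of the members had a median Pearson r across members of 0.95, with a range from 0.81 to 0.98, against a median of 0.42 over all 5962 genes. Those genes were not matched to the members for level or detection, and their median SD of log2(CPM + 1) was 2.36, against 0.30. An r across genes also holds the fixed differences in level between genes. By the SD over members of the log2 difference from the mean of the other cells, with Rps19bp1 left out, cell 19 departed most (0.54), followed by cells 4 (0.47) and 23 (0.38). Cell 23 was the cell with the fewest counts, and with Rps19bp1 the order was cell 19 (0.83), cell 23 (0.63) and cell 4 (0.49).

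In cell 4, 74 of 83 members were lower than the mean of the other cells, with a median difference of −0.52 on the log2 scale. Whether this shift was particular to the members was not tested, since other genes were not counted in this way. Rpl10a (117 CPM, against 438 ± 182 in the other 23 cells), Rpl27a (136, against 396 ± 91.2) and Rps15a (219, against 621 ± 138) were among the farthest below. Another 9 members were higher, and Rps21 (644 CPM, against 412 ± 104), Rps27l (833, against 602 ± 164) and Rpl36al (394, against 303 ± 92.8) were the farthest above.

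In cell 19 the members were shifted in both directions, with 36 higher and 47 lower than the mean of the other cells. Here too, other genes were not counted. It was the lowest cell for 11 members and the highest for 7. Rpl38 (178 CPM, against 474 ± 55.8 in the other 23 cells), Rpl5 (242, against 589 ± 85.9) and Rpl31 (184, against 381 ± 69.3) lay under the range of all other cells. Rps19 (1933 CPM, against 1126 ± 217), Rps27 (1426, against 833 ± 132), Rpl32 (2908, against 1823 ± 341) and Rps4x (2168, against 1430 ± 296) lay above it. Its ribosomal protein share was 7.66%, so the sum did not set it apart.

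Paralog use was examined in the families whose copies are both protein-coding and detected. The share of a copy is its CPM per kb as a percentage of the family's summed CPM per kb. Rpl7l1 (chr17:46773907-46782672, minus strand), a relative of Rpl7 linked to ribosome assembly, gave 13.03% of its family pooled over cells and 13.2% ± 4.26 per cell. Rpl36al (chr12:69182731-69184083, minus strand), an autosomal copy of the X-linked Rpl36a, gave 32.1%, or 31.8% ± 7.54 per cell. Rps27l (chr9:66946086-66949516, plus strand), a p53 target, gave 31.1%, or 31.3% ± 8.06 per cell, against 67.9% for Rps27 and 0.96% for Rps27rt. Rpl22l1 (chr3:28805436-28807424, plus strand), which can take the place of Rpl22 in the ribosome, gave 73.9%, or 73.2% ± 6.72 per cell. The order of Rpl22 and Rpl22l1 depends on the length used, since Rpl22 had more counts (405 ± 101 against 301 ± 91.1 CPM). Without length correction Rpl22l1 would hold 42.7%, and with the lengths of the representative mRNAs 39.0%.

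How far counts could separate these copies depends on their sequences. The coding sequences of Rps27 and its retrogene Rps27rt (chr9:114982366-114982739, minus strand) are identical over all 252 bases, so reads within them cannot be assigned to either. Those of Rpl36a and Rpl36al are 87.7% identical with no gap, those of Rpl22 and Rpl22l1 66.9% and those of Rpl7 and Rpl7l1 50.2%, with gaps. The first 90 coding bases, from GENCODE M21 transcripts, are shown with capitals where a copy differs from the gene above it, which is 24 bases in Rps27l, 0 in Rps27rt and 14 in Rpl36al.
Rps27: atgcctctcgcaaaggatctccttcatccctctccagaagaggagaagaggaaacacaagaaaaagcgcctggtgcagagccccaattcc
Rps27l: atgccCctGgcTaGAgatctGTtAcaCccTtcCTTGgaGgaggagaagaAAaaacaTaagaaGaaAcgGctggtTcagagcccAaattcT
Rps27rt: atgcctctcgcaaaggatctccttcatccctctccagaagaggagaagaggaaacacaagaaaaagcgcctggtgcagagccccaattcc
Rpl36a: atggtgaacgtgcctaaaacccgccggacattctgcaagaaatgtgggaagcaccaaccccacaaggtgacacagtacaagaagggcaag
Rpl36al: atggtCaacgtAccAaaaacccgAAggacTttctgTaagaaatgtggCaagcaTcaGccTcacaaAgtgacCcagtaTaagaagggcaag

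Rps27rt had 5.78, 11.4 and 23.5 CPM in the lowest, median and highest cell. Over 24 cells its level ran with that of Rps27 (rho 0.55, and 0.52, 0.31 and 0.36 within plate columns 1, 2 and 3). The part of Rps27 reads counted for Rps27rt in this relation was not tested. Rps27l had a rho of −0.27 with Rps27, but −0.79, 0.45 and −0.19 within the columns. The start of Rps27 and Rps27rt, but not that of Rps27l, carries a pyrimidine run at the annotated first base. In Rps27l a run of C and T follows just after that base, so the contrast depends on the exact annotated start. Windows of 30 bases before and 20 bases from the start show a run at the first base in capitals. They are given for Rps27 (chr3:90213629-90213678, minus strand), Rps27l (chr9:66946056-66946105, plus strand) and Rps27rt (chr9:114982720-114982769, minus strand). The same windows of Rpl22 (chr4:152325696-152325745, plus strand) and Rpl22l1 (chr3:28805478-28805527, plus strand) have none at that base, although a run of C and T follows just after it in Rpl22l1.
Rps27: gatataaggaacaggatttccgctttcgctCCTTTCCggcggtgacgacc
Rps27l: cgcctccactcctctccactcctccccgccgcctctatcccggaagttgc
Rps27rt: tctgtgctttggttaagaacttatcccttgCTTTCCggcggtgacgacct
Rpl22: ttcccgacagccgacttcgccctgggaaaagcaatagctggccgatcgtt
Rpl22l1: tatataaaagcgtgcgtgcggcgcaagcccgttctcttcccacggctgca

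The shares of these paralogs in cell 19 were the lowest of all 24 cells in each of the 4 families. Rpl7l1 had 2.65% of its family there, against 4.92% to 20.6% in the other 23 cells. Rpl22l1 had 51.6%, against 63.9% to 82.1%. Rpl36al had 13.3%, against 22.2% to 45.0%, and Rps27l had 14.2%, against 19.6% to 46.0%. These values rest on 91, 216, 136 and 460 counts in cell 19. The parent genes Rps27 and Rpl36a were at 1426 and 459 CPM there, against 833 ± 132 and 412 ± 62.0 CPM in the other 23 cells. Rpl22 and Rpl7 were at 625 and 1612 CPM, against 395 ± 91.7 and 1356 ± 291 CPM. By level, Rpl7l1 (73.7 CPM) and Rpl36al (110) were also lowest in cell 19. Rpl22l1 (175 CPM) and Rps27l (373) were not, since the other cells reached down to 172 and 342 CPM. Since 1 cell carries the pattern of low shares and its markers go in part against its label, it is a description of that cell. Of the other cells with weak erythroid markers, cell 9 had the second lowest Rpl7l1 share (4.92%) and a low Rps27l share (19.9%), but the highest Rpl22l1 share (82.1%) and 35.7% for Rpl36al. Cells 1 and 24 had 12.8% and 15.9% for Rpl7l1, 71.2% and 67.5% for Rpl22l1, 38.2% and 35.2% for Rpl36al, and 36.45% and 33.2% for Rps27l. In cell 4, Rpl36al (45.0%) and Rps27l (46.0%) had their highest shares.

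**Figure D5:**
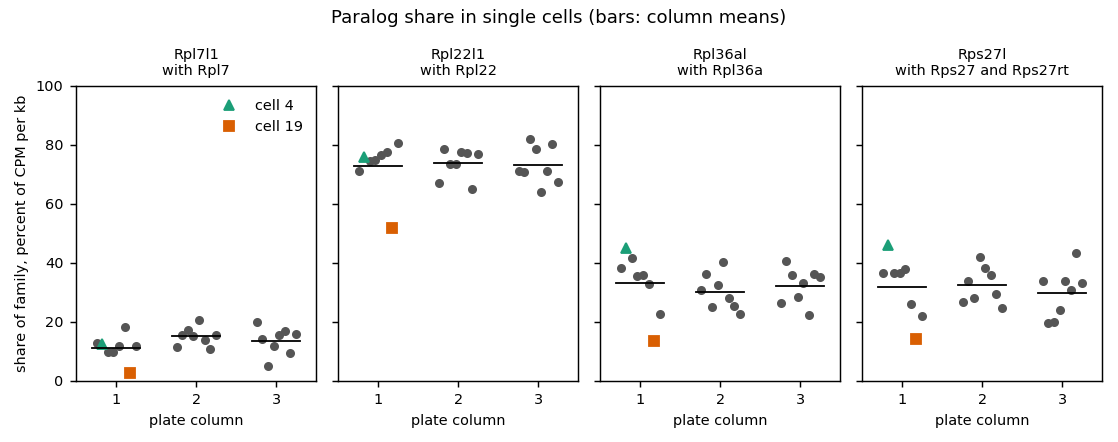
Share of Rpl7l1, Rpl22l1, Rpl36al and Rps27l in the CPM per kb of their families in each of 24 cells, by plate column (points, with column means as bars; cell 4 as a triangle, cell 19 as a square). Cell 19 is the lowest point in all 4 panels, at 2.65%, 51.6%, 13.3% and 14.2%.

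The paralog shares also varied among the other cells. Over 24 cells and 30 relations computed, the Rpl36al share ran most closely with the score of ribosome assembly factors (rho 0.75, r 0.77), with rho of 0.83, 0.74 and 0.71 within plate columns 1, 2 and 3 and 0.71 without cell 19. The Rps27l share ran with the score of mitochondrial ribosomal proteins (rho 0.74, r 0.75), with 0.81, 0.50 and 0.67 within the columns and 0.71 without cell 19. The crossed relations were weaker, at rho 0.53 for Rps27l with assembly factors and 0.50 for Rpl36al with mitochondrial ribosomal proteins. The Rpl36al share also ran with the number of genes detected (rho 0.48, and 0.38, 0.36 and 0.86 within the columns). The Rpl36al and Rps27l shares were related to each other in columns 1 and 2 (rho 0.90 and 0.71) but not in column 3 (rho −0.19), with 0.54 over all cells. For the Rpl7l1 and Rpl22l1 shares, the value of largest size was that of Rpl7l1 with the ribosomal protein share of counts, at −0.25. Such a score averages log2(CPM + 1) over the genes of the list, less the average over all genes of like abundance. Without that subtraction, the closest relations were 0.70 for Rpl36al and 0.66 for Rps27l, chosen as an alternative after seeing the data.

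Other genes of translation were described with the same scores, and members were left out of the other lists. Of 21 other mRNAs with a TOP tract, all 21 were detected in all 24 cells, against 5.17% of protein-coding rows. They held 2.24% ± 0.22 of counts. Their score ran with that of the ribosomal proteins (rho 0.57, r 0.62), but r was 0.31 without cells 4 and 19, and rho was 0.83, 0.38 and 0.29 within the plate columns. Eef1a1, the elongation factor that delivers aminoacyl-transfer RNA, was the most abundant of them at 7260 ± 1497 CPM and had a rho of 0.59 with the mean of the members. Npm1, a nucleolar chaperone, stood at 3876 ± 948 CPM with a rho of −0.06, and Rack1, a small-subunit scaffold outside the naming rule, at 1555 ± 378 CPM with a rho of 0.33. Fau, which encodes a ribosomal protein as a fusion, had 712 ± 132 CPM (rho 0.41).

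Ribosome assembly factors (rho −0.52), translation factors (−0.52) and mitochondrial ribosomal proteins (−0.57) had scores opposite to that of the ribosomal proteins. These negative values rest on subtracting genes of like abundance, and members are among those genes. Without that step rho was 0.043, 0.057 and 0.0078. In the assembly list, Ncl (2133 ± 606 CPM), Nop56 (843 ± 252) and Nop10 (636 ± 208) were highest, with rho of 0.05, −0.09 and 0.19 with the mean of the members. Among translation factors, Eif5a (4022 ± 809 CPM, rho 0.37), Eif3b (807 ± 274, rho 0.03) and Eif4a1 (737 ± 188, rho 0.17) were highest. Among mitochondrial ribosomal proteins, Mrpl12 (444 ± 215 CPM, rho 0.10), Mrpl42 (348 ± 136, rho 0.49) and Mrpl18 (298 ± 120, rho 0.04) were highest. The pairs of members with these lists had mean rho of −0.02, 0.0003 and −0.008.

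The ribosomal protein score had little relation to the cell cycle lists. Its rho was −0.16 with S phase genes, led by Mcm6 (1151 ± 472 CPM), Mcm3 (701 ± 270) and Mcm7 (683 ± 278), which form the replicative helicase. With genes of G2 and M phase it was −0.11, and Ccnb2 (370 ± 308 CPM), Cdc20 (358 ± 340) and Birc5 (280 ± 155) led that list. Within plate columns 1, 2 and 3 the values were −0.31, −0.024 and 0 for S phase and −0.095, 0.14 and −0.29 for G2 and M phase. With single cells left out, the S phase value ran from −0.27 without cell 19 to −0.083 without cell 22, and the G2 and M phase value from −0.19 without cell 10 to 0.0099 without cell 19.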

How the data were processed

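The authors' deposited table holds raw counts per gene for 24 cells, used as deposited. The submitters' processing notes name STAR 2.4, featureCounts and GRCm38, with the annotation release and counting options not given in the sources used here. GENCODE M21 held a symbol for 49326 of 49585 identifiers and gave biotypes, coordinates, lengths and the mRNAs for windows of 50 bases. Promoter windows came from RefSeq on GRCm38.p6. No genome was used. The members and lists were chosen with earlier results of these data known.

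CPM used the sum of all rows of a cell, and 5 counts made a detection. Correlations used log2(CPM + 1) and genes detected in at least 12 cells, list scores genes in at least 6 cells and 20 bins of mean expression. Members were named by the highest and lowest level, spread and co-variation, paralogy, and absence. Some genes that this rule names are not reported here, and groups by role were computed without them. Spread was to be ranked by the variance less a lowess trend of span 0.3, but that trend lay under 0 for 29 of 83 members, so the CV was used, a choice made after seeing the data. With 1 group there is no test of a condition. Python 3.11.15, numpy 2.4.6, pandas 2.3.3, scipy 1.17.1, statsmodels 0.14.6 and matplotlib 3.10.9 were used. Alternatives covered scaling, pseudocount, length, thresholds and cells left out.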

Additional observations from a re-analysis of the deposited data

How the results depend on the processing

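No paired analysis was possible because there is 1 group of cells. Over 18 results, 65 of 118 alternatives stayed within the spread between cells, within 0.1 of a rho, or within 1.5 times a count, and 53 did not. Those on cells 4 and 19, plate rows, the representative mRNA, coding sequences for paralogs, unshared windows, uncentred scores, the CV, the log2 variance and scaling to member counts were chosen after seeing the data. The cause of the moves was not tested.

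Without mitochondrial and ribosomal RNA rows the share was 8.21%. The rho of the subunits was 0.91 with size factors, 0.91 without the 5 cells under 10 CPM of Klf1, and 0.55, 0.93 and 0.60 in plate columns 1, 2 and 3. Scaled to member counts, the mean pairwise rho was −0.0024. For scores, columns 1, 2 and 3 gave 0.83, 0.38 and 0.29 for other TOP mRNAs, −0.86, −0.29 and −0.12 for mitochondrial ribosomal proteins, and −0.31, −0.024 and 0 for S phase. Columns 1 and 2 gave −0.69 and 0.10 for assembly factors, and columns 2 and 3 −0.14 and −0.64 for translation factors and 0.14 and −0.29 for G2 and M phase. Without the 5 cells of low Klf1, translation factors gave −0.39, mitochondrial ribosomal proteins −0.43, S phase −0.30 and G2 and M phase 0.093. Without cells 4 and 19, other TOP mRNAs gave 0.44 and mitochondrial ribosomal proteins −0.46. Uncentred scores gave 0.043, 0.057 and 0.0078 for assembly factors, translation factors and mitochondrial ribosomal proteins.

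Paralog shares depended on length. Without length correction they were 20.1% for Rpl7l1, 42.7% for Rpl22l1, 42.6% for Rpl36al and 41.3% for Rps27l. With the union of exons they were 52.1% for Rpl22l1, 47.6% for Rpl36al and 46.6% for Rps27l. With representative mRNAs they were 18.3% for Rpl7l1, 39.0% for Rpl22l1 and 40.5% for Rpl36al. With coding sequences they were 21.7%, 43.9% and 42.6% for the same genes. Windows found in no other gene gave 52.6% for Rpl22l1, 21.1% for Rpl36al and 0.62% for Rps27l, the last because Rps27 has only 4 such windows. The median level per kb was 379 with the union of exons, 1692 with coding sequences and 2629 with unshared windows. The variance residual of members less that of all genes was −0.12 as planned and −1.37 on the log2 variance.

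Leaving out each cell in turn gave 7.43% to 7.55% for the share, 82 for members in all cells, 0.097 to 0.15 for the mean pairwise rho, and 0.76 to 0.86 for the subunits. It gave 0.51 to 0.65 for other TOP mRNAs, −0.58 to −0.46 for assembly factors, −0.62 to −0.46 for translation factors, −0.70 to −0.51 for mitochondrial ribosomal proteins, −0.27 to −0.083 for S phase and −0.19 to 0.0099 for G2 and M phase. Paralog shares ranged over 12.7% to 13.5% for Rpl7l1, 73.3% to 74.7% for Rpl22l1, 31.6% to 32.8% for Rpl36al and 30.5% to 32.1% for Rps27l. Depth limits the lowest members, such as Rps27rt with 465 counts in all.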

Other observations

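Among 5266 other protein-coding genes detected in at least 12 cells, few ran closely with the summed ribosomal proteins over the 24 cells. The median rho was −0.02, 6 genes reached 0.6 or more and 17 reached −0.6 or less. Highest were Snrpf (rho 0.70, 222 ± 73.6 CPM), a core protein of the spliceosomal RNPs, Txnip (0.70, 111 ± 112), which binds thioredoxin and limits glucose uptake, Adh5 (0.64, 353 ± 145), B4galnt1 (0.63, 59.6 ± 64.1) and Ak3 (0.60, 181 ± 115), the adenylate kinase of the mitochondrial matrix. Lowest were Tbc1d15 (−0.71, 99.7 ± 112 CPM), Ebp (−0.69, 74.99 ± 82.4), an enzyme of cholesterol synthesis, Hgsnat (−0.68, 48.2 ± 55.9), Uqcr10 (−0.67, 346 ± 124), a subunit of respiratory complex III, and Trip13 (−0.67, 59.7 ± 54.8). These are the ends of a long ranked list over 24 cells of 1 plate, and no p-value was made.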
